A study of Arabidopsis thaliana with 12 samples.

Results

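A set of 114 genes, seen through 115 probe sets, had their highest signal in root cortex nuclei with a 4C DNA content. They were selected on the measured values themselves from the 13356 genes for which the table used here gives a probe set of their own (13513 probe sets of 22746 without controls). The mean log2 signal of the 4C class had to exceed each other class mean by at least 0.4. The lowest 4C array also had to exceed the highest 8C and the highest 16C array. The first condition alone was met by 175 probe sets, of which 60 failed the second, and a limit of 150 on the number of members was not reached. High 4C signals of the members are therefore a description and not a finding.

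The nuclei came from roots of 5-day-old Arabidopsis thaliana plants, ecotype Col-0. All plants carried pCO2:YFP-H2B, a yellow fluorescent histone H2B under the promoter of the cortex-expressed gene CO2, so every class shares this transgene and its promoter decides which nuclei were sorted. Fluorescent nuclei were sorted into 2C, 4C, 8C and 16C classes, and their RNA was amplified and measured on ATH1 arrays, 3 arrays for each class. The labels call the arrays biological replicates of pooled root material without naming plants or sorts, so p-values measure the spread between these arrays, which may be partly technical.

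A 2C nucleus holds the unreplicated genome, and each further class is 1 doubling. In the cell cycle, DNA replication is followed by a gap phase and then by mitosis, in which kinases, motor proteins and chromosome-binding proteins are made shortly before they are needed. In the endocycle, which is common in the growing root cortex, replication recurs without mitosis. A 4C nucleus can thus be one that prepares to divide or one that has left division, while 8C and 16C nuclei have passed through the endocycle.

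Across the members, the typical signal was highest in 4C, lower in 2C, and lowest in 8C. The median log2 signal over the 115 class means was 5.82 for 2C, 6.74 for 4C, 5.07 for 8C and 5.28 for 16C. Over all 22746 probe sets the corresponding medians were 5.35, 5.34, 5.27 and 5.30. The margin, which is the 4C mean minus the next highest class mean on the log2 scale, ran from 0.40 to 1.95 with a median of 0.64. It exceeded 1 for 29 members, lay between 0.6 and 1 for 34 and lay under 0.6 for 52. The class next to 4C was 2C for 96 members, 16C for 16 and 8C for 3. The lowest class was 8C for 94 members, 16C for 19 and 2C for 2. In nuclei pooled by class, fewer nuclei of a kind and less RNA per nucleus cannot be told apart.

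**Figure D1:**
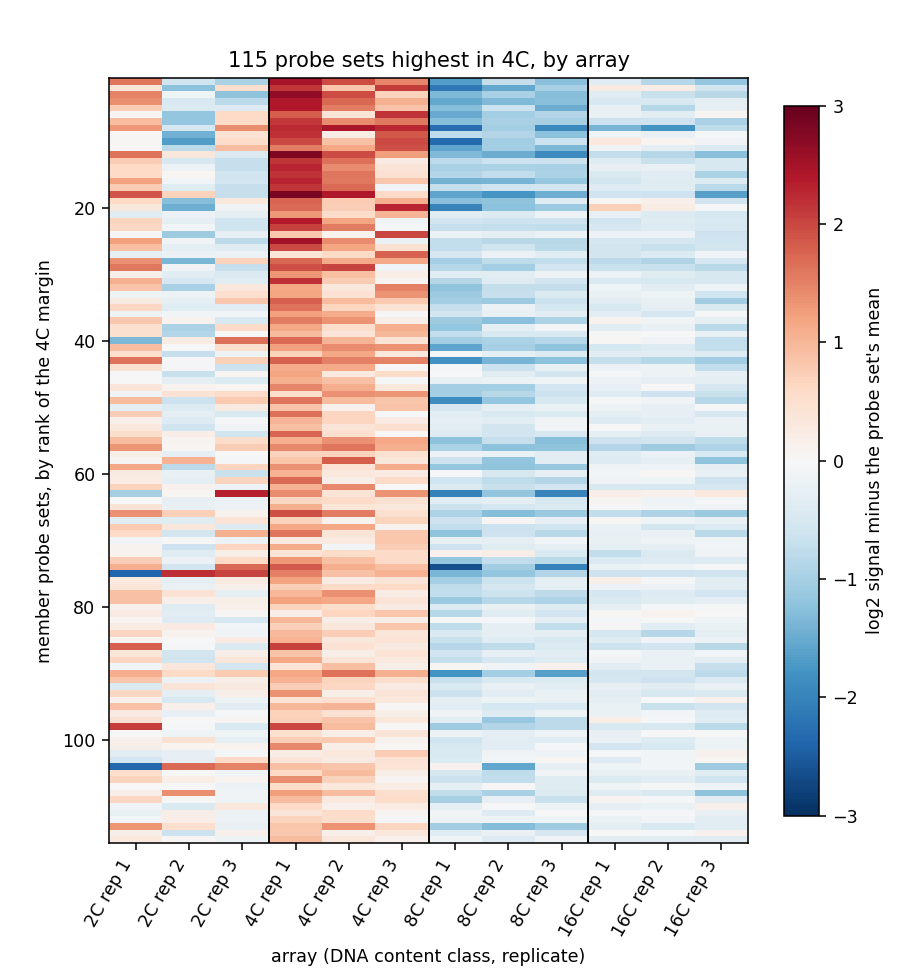
Log2 signal of each member probe set on each of the 12 arrays (columns, in order of class and replicate), as the difference from that probe set's mean over the arrays (colour, log2), ordered down the page by the margin. The 4C columns are the reddest by construction, 2C replicate 1 is redder than the other 2C columns, and the 8C columns are the bluest, with 8C the lowest class for 94 of the 115.

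The 4C mean exceeded the 2C mean by a median of 0.67, the 16C mean by 1.22 and the 8C mean by 1.38. For 31 members all 4C arrays lay above all 2C arrays, a condition that the selection did not set directly and that 7.76% of all probe sets met. For the other 84 the arrays of the 2 classes overlapped. Between arrays of the same replicate number, the 4C array lay above the 2C array in all 3 pairs for 97 members, with 20.6% of all probe sets. Since the selection used the same contrast, these shares say nothing further about the members. The spread within classes was unequal: the median SD of a member over 3 arrays was 0.55 for 2C, 0.47 for 4C, 0.17 for 8C and 0.14 for 16C, against 0.20, 0.18, 0.16 and 0.12 over all probe sets.

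Genes of cell division stood among the members. Of the 199 genes on 9 cell cycle lists, 49 had a single-gene probe set with the table used here. Of these 49, 13 were members, beside 0.851% of all single-gene probe sets. The 13 held 3 of 12 measured genes for the spindle and chromosome segregation and 8 of 16 on the kinesin list. They also held 1 of 4 for cytokinesis and 1 of 3 transcription factors of the cell cycle. Coverage differed between lists: 16 of 20 listed kinesins were measured, against 12 of 31 segregation genes and 4 of 23 cytokinesis genes. The number of kinesins thus partly follows what was measured. None of 9 histone genes, 3 endocycle regulators and 2 DNA replication genes was a member. No gene of the cyclin and cyclin-dependent kinase list or of the DNA damage list had a probe set named in the table used here. The lists were drawn up with earlier results of these data known, so the counts are not independent evidence.

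AUR2 encodes an Aurora kinase, which acts on mitotic chromosomes and the spindle. Its signals were 7.65, 6.07 and 7.82 on the 2C arrays, 9.45, 8.14 and 9.39 on the 4C arrays, 5.16, 5.76 and 6.33 on the 8C arrays, and 7.58, 7.52 and 6.72 on the 16C arrays. Every 4C array lay above every other array, and the 2C and 16C arrays overlapped. The 4C mean was 3.30 times the 16C mean, the next highest, and 9.48 times the 8C mean. BUBR1, a protein of the checkpoint that delays mitosis until chromosomes are attached, read 5.33, 4.35 and 4.41 in 2C, 6.34, 5.36 and 5.13 in 4C, 4.01, 4.53 and 4.18 in 8C, and 4.24, 4.41 and 4.28 in 16C. The first 2C array of BUBR1 lay among its 4C arrays.

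For 4 genes of proteins that bind, untangle or resolve DNA, class means were ordered 4C, 2C, 16C and 8C from high to low. 3xHMG-box2 encodes an HMG-box protein that associates with mitotic chromosomes. It read 6.88, 5.26 and 4.18 in 2C, 8.04, 7.34 and 6.08 in 4C, 4.04, 4.40 and 4.1 in 8C, and 5.02, 4.71 and 4.56 in 16C. TOPII, the type II topoisomerase that separates entangled DNA, read 6.35, 5.57 and 5.06 in 2C, 8.05, 7.18 and 6.15 in 4C, 4.78, 4.80 and 4.78 in 8C, and 5.51, 5.54 and 5.27 in 16C. In both genes the lowest 4C array lay below the highest 2C array and above all arrays of 8C and 16C. ATSMC2, a subunit of the condensin complex that compacts chromosomes, had a smaller margin of 0.56, with 5.51, 5.08 and 4.34 in 2C, 5.89, 5.90 and 4.84 in 4C, 4.00, 4.1 and 4.14 in 8C, and 4.54, 4.18 and 4.32 in 16C. AT3G48900, which the gene table also names SEND1, a homologue of enzymes that resolve crossed DNA strands, had a margin of 1.48, with 4C arrays at 7.54, 7.05 and 5.64 and 2C arrays at 6.15, 4.92 and 4.70.

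Kinesins, motors that move along microtubules, were the list with the most members and also with the most measured genes. The gene table gives these 8 genes as locus codes, and their kinesin families come from general knowledge of the loci. AT2G36200, of the kinesin-5 family that pushes spindle poles apart, read 8.51, 7.21 and 6.44 in 2C, 9.67, 8.83 and 8.13 in 4C, 5.54, 5.38 and 4.95 in 8C, and 6.15, 6.02 and 5.63 in 16C. The 4C and 2C arrays of this gene overlapped, yet the 4C array was higher by 1.16, 1.62 and 1.69 within the same-numbered pairs, while both classes lay wholly above 8C and 16C. AT3G44050, of the kinesin-12 family, read 6.05, 4.86 and 4.90 in 2C, 7.70, 6.82 and 6.14 in 4C, 4.02, 4.65 and 3.79 in 8C, and 5.06, 4.44 and 5.03 in 16C. It was the only one of the 8 whose 4C arrays all lay above its 2C arrays. A second kinesin-12 gene, AT3G20150, and the kinesin-10 gene AT5G23910 had margins of 1.21 and 1.2.

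The other 4 members on the kinesin list were AT5G60930 (margin 1.02), the kinesin-5 gene AT2G37420 (0.95), the kinesin-14 gene AT2G22610 (0.81) and AT5G33300 (0.61). Members outside the lists were not searched for further kinesins. AT2G22610 differed from most members in that its 2C, 8C and 16C arrays were alike, between 3.85 and 4.26, while its 4C arrays stood at 5.35, 5.16 and 4.23. The third of these 4C arrays was thus no higher than the highest 2C array. AT2G28620, a further kinesin-5 gene, missed the margin with 0.395 and was not a member.

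FU, also called TIO, encodes a Fused-type kinase needed for the phragmoplast, the structure that lays down the new cell wall at cytokinesis. It read 8.16, 7.51 and 6.91 in 2C, 8.73, 8.33 and 7.28 in 4C, 5.84, 5.53 and 5.69 in 8C, and 6.06, 5.86 and 5.68 in 16C. A second probe set for FU, not a member, had class means of 4.72, 5.05, 4.96 and 5.00 and did not share the pattern. AT1G63100, known as SCL28, is a GRAS transcription factor of the phase before mitosis. It read 7.48, 6.77 and 6.19 in 2C, 8.22, 8.02 and 6.88 in 4C, 5.61, 5.42 and 5.74 in 8C, and 6.77, 6.57 and 6.37 in 16C. Its 16C arrays lay within the range of its 2C arrays, whereas those of FU lay below all 2C arrays.

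**Figure D2:**
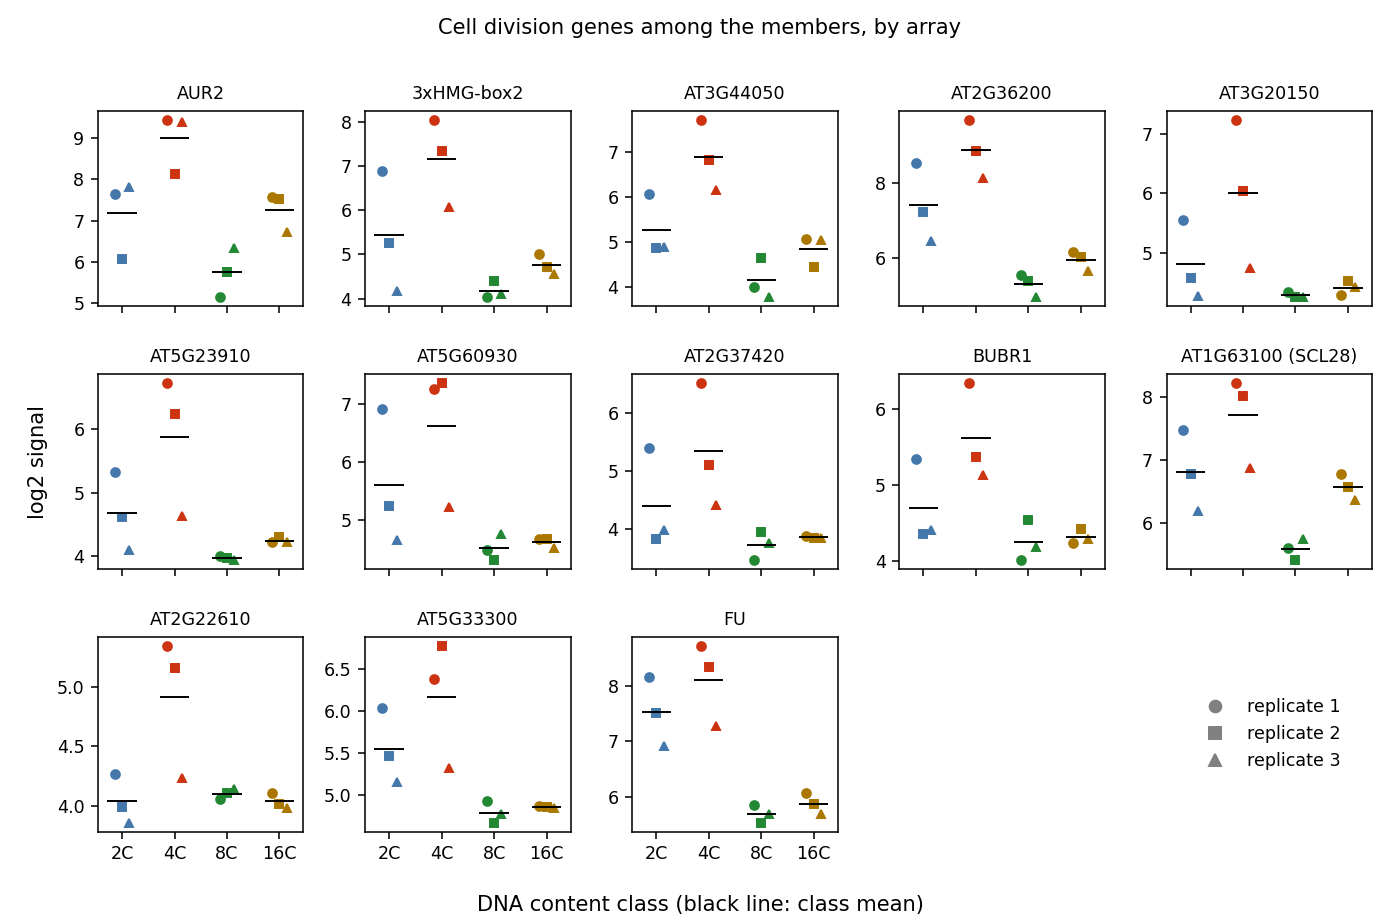
Log2 signal (vertical axes, a scale of its own in each panel) on each array of the 13 members that stand on a cell cycle list, by DNA content class; symbols mark the replicate number and black lines the class means. In 12 of the 13 panels 4C replicate 3 (triangle) is the lowest 4C array, the exception being AUR2.

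Outside the cell division lists, the members with a gene symbol belonged to several kinds of protein. VPS2.2 is of the ESCRT-III family, which cuts membrane necks in endosomes and at cell separation. It read 8.07, 6.89 and 5.5 in 2C, 9.03, 8.59 and 6.78 in 4C, 4.62, 4.42 and 4.72 in 8C, and 5.60, 5.56 and 4.56 in 16C, a margin of 1.31. TRM33, of the family of TON1-recruiting-motif proteins, some of which act on microtubule arrays, had a margin of 0.89, with 4C arrays at 7.39, 7.26 and 6.17 and 2C arrays between 6.01 and 6.08. UBC20, a ubiquitin-conjugating enzyme, had a margin of 0.62 over 16C, and its 4C arrays (7.25, 6.54 and 6.47) overlapped with its 2C arrays (6.49, 6.0 and 5.56). ULT1, a regulator of meristem size that acts through chromatin, had a margin of 0.50, with 4C arrays at 8.66, 8.27 and 8.76, just above 2C arrays at 8.16, 8.18 and 7.85.

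TBL36, TBL34, SCPL45 and scpl46 stand here by the family names in their symbols and were not tested as a group. TBL36 and TBL34 are of the TRICHOME BIREFRINGENCE-LIKE family, members of which acetylate wall polysaccharides, and had margins of 0.67 and 0.82. TBL36 read 8.56, 7.71 and 8.19 in 2C, 8.70, 9.0 and 8.78 in 4C, 6.39, 6.95 and 6.36 in 8C, and 7.02, 7.08 and 6.88 in 16C, so its 2C and 4C arrays stood close together and above the rest. TBL34 stood higher on the 4C arrays alone, at 6.02, 5.13 and 5.40, against 4.19 to 4.90 on the other 9 arrays. The serine carboxypeptidase-like genes SCPL45 and scpl46 had margins of 0.86 and 1.12. The SCPL45 arrays read 9.27, 9.46 and 9.40 in 4C against 8.96, 8.03 and 8.57 in 2C, and those of scpl46 read 5.54, 5.77 and 6.94 in 4C against 4.89, 5.00 and 5.00 in 2C.

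ACLA-2, a subunit of the ATP-citrate lyase that makes cytosolic acetyl-CoA, had a margin of 0.78. BGLU41, a beta-glucosidase, had one of 0.48. EXLA3, an expansin-like protein, had a margin of 0.53 that rested on a single array: its 4C arrays read 11.70, 11.05 and 11.24, against 7.80, 12.40 and 12.20 on its 2C arrays. Without 2C replicate 1, the margin of EXLA3 was -0.97. AT5G19110 had the same layout, with 10.72, 10.64 and 10.21 in 4C against 7.46, 11.52 and 11.31 in 2C.

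Most of the set is known in the gene table only by locus code, 98 of the 115 probe sets, and no role is given here for those outside the lists apart from AT3G48900. AT1G75920 had the widest margin, 1.95. Its arrays read 8.86, 6.64 and 6.29 in 2C, 9.73, 9.20 and 8.72 in 4C, 5.56, 6.54 and 6.0 in 8C, and 6.94, 6.40 and 6.10 in 16C. One of its 2C arrays thus lay above the lowest 4C array, and the other 2C arrays lay among those of 8C and 16C. AT5G22860 had the widest gap between 4C and 8C, 4.06, with 8.91, 7.09 and 9.0 in 2C, 9.85, 10.05 and 9.86 in 4C, 5.32, 6.57 and 5.67 in 8C, and 6.21, 5.82 and 6.85 in 16C. All of its 4C arrays lay above all others.

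The further members among the 24 widest margins by locus code were AT4G01730 (1.69), AT5G65530 (1.60), AT1G79620 (1.60), AT5G52790 (1.57), AT1G03920 (1.52), AT2G22620 (1.5), AT3G17680 (1.40), AT5G48310 (1.37), AT5G15510 (1.34), AT1G31720 (1.31), AT1G43020 (1.27), AT1G28710 (1.22) and AT4G05170 (1.18). AT5G65530, AT5G52790, AT1G03920 and AT1G43020 shared with AUR2 that 16C and not 2C came next to 4C. AT1G28710 stood out for its evenness outside 4C: its 4C arrays read 8.25, 7.48 and 7.95, and the other 9 arrays lay between 6.40 and 6.79. AT4G05170 likewise had 4C arrays at 6.88, 6.17 and 8.05, against 4.99 to 6.01 elsewhere.

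At the edge of the selection, the members with the smallest margins were AT3G62050, AT4G24430 and AT1G04030, each at 0.40. The nearest probe sets outside were CYP51G2 at 0.39990, AT2G28620 at 0.395 and AT3G57060 at 0.393, so the set has no natural edge there. AT5G57670 was a member through both of its probe sets, with margins of 1.0 and 0.84. For 4 member genes another probe set of the same gene did not meet the rule: its margin was 0.15 for AT3G56590, 0.05 for FU, -0.05 for AT1G21830 and -0.49 for AT1G79990. The members AT2G22610 and AT2G22620 are next to each other in the TAIR10.1 gene order, as are AT3G54250 and TBL36, and AT3G62040 and AT3G62050. Between scpl46 and BUBR1 lie 2 protein-coding genes.

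Leaving out 1 array at a time gave from 94 members to more than the limit of 150, and 50 of the 115 were chosen without each of the 12 arrays in turn. Without 4C replicate 3 the rule took 238 probe sets before the limit, without 4C replicate 2 it took 179, and without 2C replicate 1 it took 161. Without 16C replicate 3 it took 134 and without 8C replicate 3 it took 124, while 94 remained without 4C replicate 1. A margin of 0.6 in place of 0.4 kept 63. The margin fell below 0 for EXLA3, AT5G19110 (-0.89) and AT4G33420 (-0.13) without 2C replicate 1, for AT3G62040 (-0.13) without 2C replicate 2, and for AT5G62550 (-0.09), AT4G15830 (-0.07) and AT5G55660 (-0.004) without 4C replicate 1.

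Arrays of one class did not show the members at the same level. The median member signal was 7.25, 6.78 and 6.41 on 4C replicates 1, 2 and 3, and 6.29, 5.57 and 5.84 on the 2C replicates. On the 8C arrays it was 4.95, 5.02 and 5.11, and on the 16C arrays 5.40, 5.32 and 5.27. Of the 115 members, 77 had their highest 4C signal on replicate 1, against 25.5% of all probe sets, and 70 had their lowest on replicate 3, against 33.1%. In 2C, 75 members were highest on replicate 1, against 36.5% of all probe sets.

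**Figure D3:**
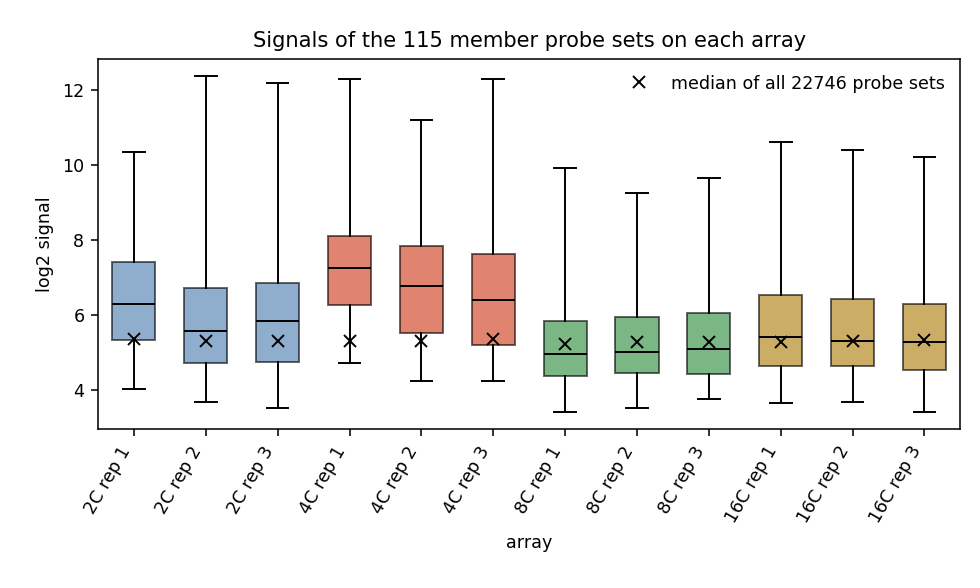
Box plots of the log2 signal of the 115 member probe sets on each array (vertical axis), coloured by class; boxes span the quartiles, the line is the median, whiskers reach the lowest and highest member, and crosses mark the median of all 22746 probe sets. Member medians lie between 6.41 and 7.25 on the 4C arrays, between 5.57 and 6.29 on the 2C arrays and between 4.95 and 5.40 on the other 6, while the crosses stay level.

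Among the listed cell division members this order was nearly uniform. Of the 13 listed members, 12 were lowest of 4C on replicate 3 and 12 were highest of 2C on replicate 1, AUR2 being the exception to both. Of the other 102 members, 58 were lowest on 4C replicate 3 and 35 on 4C replicate 2, and 63 were highest on 2C replicate 1. A member that was lower on 4C replicate 3 than on 4C replicate 2 tended to be lower on 2C replicate 3 than on 2C replicate 2 as well. Both differences were below 0 for 46 members, both above 0 for 35 and opposite for 34 (Pearson's r = 0.69 across the 115 members, which share arrays and are not independent replicates). Across all 22746 probe sets r was 0.60, so a like relation held over the whole array. Whether it came from plants, sorts or array handling was not tested.

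**Figure D4:**
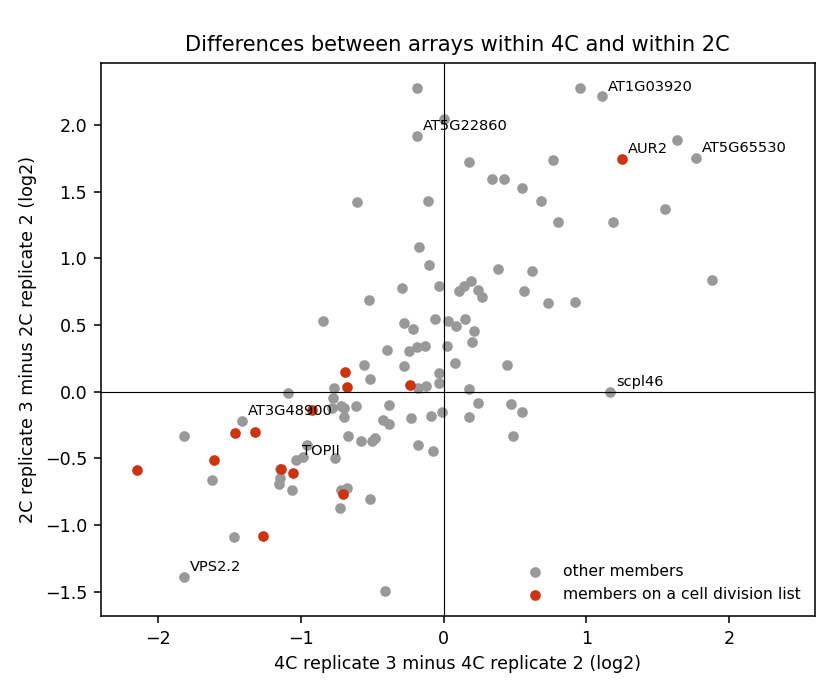
Difference between replicates 3 and 2 within 4C (horizontal axis, log2) and within 2C (vertical axis, log2), 1 point per member probe set; red points are the 13 members on a cell cycle list. The points run from lower left to upper right (r = 0.69 over 115), and AUR2 lies at upper right, apart from the other red points.

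The classes other than 4C were also compared by limma, since the selection does not rank them directly against each other. The selection is even-handed between 16C and 8C. It is not so for 2C. Each 8C and 16C array had to lie under the lowest 4C array, while a 2C array could lie above it. Lower values in 8C and 16C than in 2C are thus partly fixed by the choice of members. The contrasts with 2C below, their p-values and their shares are therefore a description of the members and not a finding.

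Between 16C and 8C no member passed the test, although most leaned to higher 16C signals. The 16C mean lay above the 8C mean for 95 of the 115 and below it for 20, with a median difference of 0.22 (log2), against -0.01 over all probe sets. None of the members was called by limma at an adjusted p of 0.05, beside 0.259% of all probe sets. At an unadjusted p below 0.05 there were 18, for which no share of all probe sets is given here. The 2C and 4C arrays enter the shared spread and were more variable, so p-values here can be too high. The number at an unadjusted p below 0.05 moved with the arrays in the fit, and the cause was not tested. It was 17 to 26 without 1 of the 2C arrays and 18 to 22 without 1 of the 4C arrays. It was 9 without 8C replicate 1, 9 without 16C replicate 1, 10 with 16C replicates 1 and 2 averaged, 34 with array weights and 46 in a fit of the 6 arrays alone. Calls numbered 6 with array weights and 4 in that fit, without the share of all probe sets called there. All 16C arrays lay above all 8C arrays for 39 members (33.9%, with 10.2% of all probe sets), and all below for 1.

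The members with the largest differences between 16C and 8C stood apart in all arrays of both classes. AT4G33420 read 9.19, 9.14 and 9.33 in 16C against 6.97, 7.82 and 7.03 in 8C, a difference of 1.95 ± 0.67 (SE, limma adjusted p = 0.317). AT3G62040 read 8.70, 8.78 and 8.91 in 16C against 6.26, 7.85 and 6.87 in 8C, a difference of 1.80 ± 0.55 (limma adjusted p = 0.249). For AT1G43020 the 16C arrays stood at 6.67, 6.18 and 5.89 and the 8C arrays at 3.94, 4.71 and 4.84, a difference of 1.75 ± 0.50 (limma adjusted p = 0.233). None of the 3 passed the threshold, although their arrays did not overlap. The difference of AUR2 was 1.52 ± 0.52 (limma adjusted p = 0.306).

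Between 8C and 2C, 31 members were called lower in 8C and none higher. This is 27% of the members beside 11.6% of all probe sets called lower, in the direction that the selection partly fixes. The median difference was -0.72, against 0.06 over all probe sets, and all 8C arrays lay below all 2C arrays for 51 members (44.3%, with 17.3% of all probe sets). The count fell to 14, 19 and 17 without 8C replicates 1, 2 and 3, to 18 without 2C replicate 1, and to 13 in a fit of the 6 arrays alone. The smallest p belonged to AT1G65370, with 7.36, 8.12 and 7.53 in 8C against 10.23, 9.74 and 9.94 in 2C. It fell by 2.30 ± 0.22 (SE, limma adjusted p = 0.000133), and its 4C arrays, at 10.32, 10.78 and 10.22, overlapped with those of 2C.

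The next smallest p-values belonged to genes whose 8C arrays also lay wholly below their 2C arrays. SCPL45 read 6.45, 7.04 and 6.83 in 8C against 8.96, 8.03 and 8.57 in 2C, and fell by 1.74 ± 0.22 (limma adjusted p = 0.000537). TBL36 fell by 1.59 ± 0.22 (limma adjusted p = 0.000801). AT3G19300, with 5.11, 4.84 and 4.86 in 8C against 7.38, 6.13 and 6.81 in 2C, fell by 1.84 ± 0.26 (limma adjusted p = 0.00107). SCPL45, TBL36, AT3G19300, AT1G65370, AT5G06670 (-2.25 ± 0.34) and AT3G56590 (-1.37 ± 0.24) passed in 21 of 22 alternative settings tried, the exception being a fit of the 6 arrays with a replicate block. Of the 13 listed cell division members only FU (-1.84 ± 0.37), AT2G36200 (-2.10 ± 0.50) and AT1G63100 (-1.23 ± 0.37) were among the 31, and the difference of AUR2 was -1.43 ± 0.52 (limma adjusted p = 0.0747).

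Between 16C and 2C, 10 members were lower in 16C and none higher, or 8.7% against 8.05% of all probe sets called lower, so the share of calls was near the background. The median difference was -0.36, against 0.03 over all probe sets, and all 16C arrays lay below all 2C arrays for 28 members (24.3%, with 16.8% of all probe sets). The count was 6 without 16C replicate 1, 5 without 16C replicate 2 and 4 in a fit of the 6 arrays alone. With 16C replicates 1 and 2 averaged, whose arrays correlated at r = 0.996, it was 6. Of the 10 members, 9 were also called lower in 8C than in 2C, both comparisons sharing the 2C arrays. AT1G65370 read 8.59, 8.59 and 8.37 in 16C and fell by 1.45 ± 0.22 relative to 2C (limma adjusted p = 0.00229). AT3G19300 fell by 1.67 ± 0.26 and passed, like AT1G65370, in all of 22 alternative settings. TBL36 fell by 1.16 ± 0.22 and passed in 21 of them, and AT5G06670 (-1.63), SCPL45 (-1.02) and FU (-1.66) passed in 20 each.

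**Figure D5:**
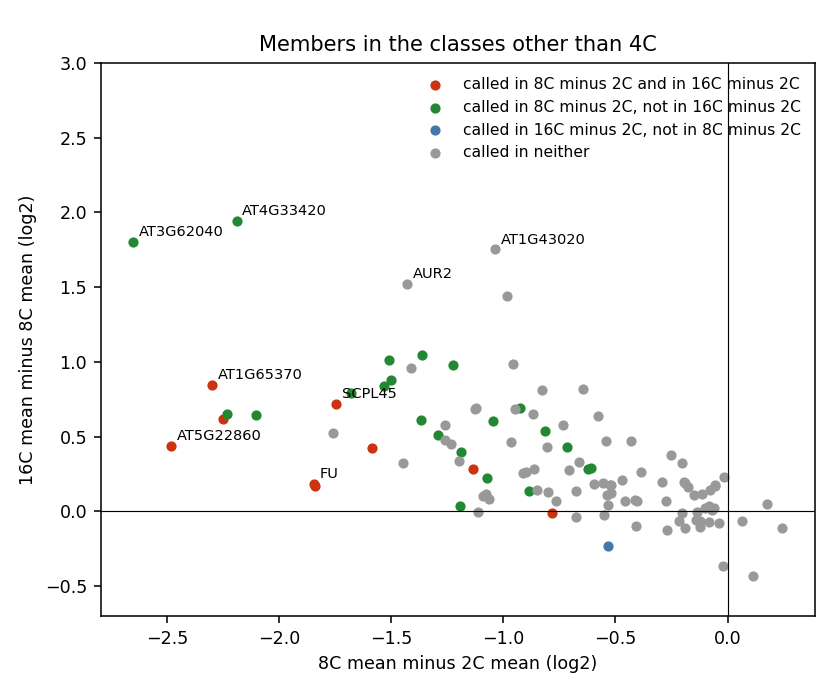
Each member probe set by its 8C minus 2C difference (horizontal axis, log2) and its 16C minus 8C difference (vertical axis, log2) of class means; colour gives the limma calls at an adjusted p of 0.05, 9 in both contrasts with 2C, 22 in 8C minus 2C alone and 1 in 16C minus 2C alone. Most points lie left of 0 (111 of 115), which the selection partly fixes, and above 0 (95 of 115). No 16C minus 8C difference was called.

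Cell cycle genes that were not members were also compared on the 4C contrasts. Their lists were drawn up with earlier results of these data known, so the counts are not independent evidence. Of the 36 measured, 7 were called higher in 4C than in 8C and none lower, against 5.17% of all probe sets called higher. At an unadjusted p below 0.05 there were 22, for which no share of all probe sets is given here. The median difference of the 36 was 0.46 (log2), against -0.04 over all probe sets. The count of calls was 1 without 4C replicate 1, 2 without 4C replicate 2, 15 without 4C replicate 3, 1 without 8C replicate 1 and 2 without 8C replicate 3. It was 5 without 8C replicate 2, of which 4 were higher in 4C. It was 15 with array weights and 4 in a fit of the 6 arrays alone. Because the selection took genes with wide 4C margins out of the lists, many genes left over have smaller or other differences. Some met the margin of 0.4 and failed only the second condition. 3xHMG-box1, AUR3 and BUB3.1 had 4C means 0.78, 0.52 and 0.50 over 2C, and AT1G72250 had one 0.45 over 8C. Their 4C replicate 3, at 4.17, 4.40, 5.34 and 4.25, did not exceed all 8C and 16C arrays. These genes were chosen after their values were seen.

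The 7 genes came from the segregation, cytokinesis, replication and histone lists. AUR1, the close relative of AUR2, read 7.86, 8.02 and 7.09 in 4C against 5.98, 6.06 and 6.34 in 8C, a difference of 1.53 ± 0.30 (SE, limma adjusted p = 0.0130). Its 2C arrays, at 8.02, 7.05 and 6.89, overlapped with those of 4C, which AUR2's did not. WYR, of the chromosomal passenger complex with which Aurora kinases act, was 0.39 ± 0.09 higher in 4C than in 8C (limma adjusted p = 0.0225). AT4G14330, the phragmoplast kinesin PAKRP2, was 0.45 ± 0.10 higher (limma adjusted p = 0.0240). Both differences lay below the smallest 4C minus 8C difference of a member, 0.47. The class means of WYR were 4.03 in 4C and 3.65 in 8C, under the lower quartiles over all probe sets, 4.25 and 4.26. Those of AT4G14330 were 4.74 and 4.29. The calls on 4C minus 8C held in 14 of 21 alternatives for WYR and in 15 of 21 for AT4G14330.

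The other 4 of the 7, a replication gene and 3 histone genes, had their highest class mean in 2C. PRL, the MCM7 subunit of the replicative helicase, read 5.64, 5.55 and 5.38 in 4C against 4.27, 4.34 and 4.30 in 8C, and was 1.22 ± 0.28 higher in 4C (limma adjusted p = 0.0249). Its 2C arrays stood at 8.23, 7.96 and 6.85, above all 4C arrays. The H2B gene HTB4 was 1.15 ± 0.20 higher in 4C than in 8C (limma adjusted p = 0.00745) and passed in 21 of 22 alternatives. The linker histone genes AT1G06760 (H1.1) and HIS1-3 (H1.3) were higher by 0.90 ± 0.24 and 2.89 ± 0.79, each passing in 10 of 22. For HIS1-3 the 8C arrays read 4.49, 7.48 and 4.76, so 1 of them stood apart from the others and nearer to the 4C arrays at 8.61, 7.89 and 8.90.

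Against 2C, 1 of the 36 genes was lower in 4C and none higher, beside 0.251% of all probe sets called lower and 0.352% called higher. This was PRL, which fell by 2.16 ± 0.28 (limma adjusted p = 0.0129). The count was 0 without 4C replicate 2 and 2 without 2C replicate 3. Without 4C replicate 3 it was 1, and that gene was higher in 4C. Against 16C none was called by limma, beside 3.57% of all probe sets called in either direction. At an unadjusted p below 0.05 there were 14, for which no share of all probe sets is given here. The count of calls was 9 without 4C replicate 3, 3 without 2C replicate 1 and 14 with array weights, without the share of all probe sets called there. It was 4 of the 36 when the 6 arrays compared were fitted with the replicate number as a block. That fit called 10.3% of all probe sets in either direction, so the share of listed genes called was near the background. Same-numbered arrays of 4C and 16C deviated together. The 4 genes were each higher in 4C than in 16C in that fit: BUB3.1, of the checkpoint that also holds BUBR1, by 0.89 ± 0.11 (limma adjusted p = 0.0133), PRL by 0.64 ± 0.09 (0.0188), AUR1 by 1.15 ± 0.18 (0.0225) and HTB4 by 0.59 ± 0.10 (0.0253). BUB3.1 was chosen after its values were seen. In the fit of all 12 arrays a fixed block gave 0 and a random block 1. The median of the 36 was 0.13 over 2C and 0.35 over 16C, against 0.00 and -0.02 over all probe sets. In the lists where none passed between 4C and 8C, the smallest p belonged to AT2G28620 among kinesins (0.71 ± 0.25, limma adjusted p = 0.108), TSO1 among transcription factors (0.56 ± 0.27, limma adjusted p = 0.217) and AT2G28330, known as SMR11, among endocycle regulators (0.05 ± 0.09, limma adjusted p = 0.746).

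Markers of the cortex and of its neighbours showed where the sorted nuclei can be checked. None of the 9 measured marker genes, of 44 on 7 lists, was a member. The reporter's own gene CO2 (AT1G62500) had class means of 4.03, 4.25, 4.02 and 4.14 from 2C to 16C, in the lower part of the signal range, and JKD, a ground tissue regulator, had 5.51, 5.94, 6.34 and 5.70. The sum of the log2 signals of the 2 cortex markers ran from 9.84 to 10.8 on the 4C arrays. It ran from 9.23 to 10.1 on the 2C arrays, from 10.3 to 10.4 on those of 8C and from 9.66 to 9.95 on those of 16C. The endodermis gene GSO1 (SGN3) had its highest mean in 4C, with arrays at 5.59, 5.52 and 5.93 there against 4.42 to 5.53 elsewhere, and passed in no 4C contrast. It was the only 1 of 9 endodermis markers measured.

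Other tissues were covered as thinly. The log2 signals of the pericycle and lateral root primordium markers, 3 of 7 measured, summed to 16.6 to 17.0 in 4C. The sums were 17.2 to 19.1 in 2C, 16.5 to 17.2 in 8C and 16.2 to 16.7 in 16C. From 2C to 16C, the class means of LBD16 were 9.09, 8.07, 7.63 and 7.37. Those of LBD29 were 4.55, 4.41, 4.90 and 4.65, and those of PUCHI 4.67, 4.36, 4.23 and 4.37. Of 9 epidermis markers, 2 were measured, EXPA7 and EXPA18. Their log2 signals summed to 9.58 to 10.0 in 4C and to 11.2 to 11.5 in 16C. Both were lower in 4C than in 16C, EXPA7 by a difference of -0.80 ± 0.12 (limma adjusted p = 0.00657) and EXPA18 by one of -0.78 ± 0.11 (limma adjusted p = 0.00466). Both were also higher in 16C than in 8C, by 0.79 ± 0.12 (limma adjusted p = 0.0300) and 0.80 ± 0.11 (limma adjusted p = 0.0240). The photosynthesis gene LHCB4.1, 1 of 5 measured, ran from 8.05 to 8.77 in 4C, from 8.51 to 9.88 in 2C, from 6.20 to 7.66 in 8C and from 8.14 to 8.42 in 16C. It was 1.57 ± 0.42 higher in 4C than in 8C (limma adjusted p = 0.0422), a call that held in 10 of 22 alternatives, and fell by 2.05 ± 0.42 in 8C relative to 2C (limma adjusted p = 0.00691). No stele or root cap marker had a named probe set. The deposited signals carry no detection calls, so none of these genes can be called absent, and the part of other cell types in the members' signals was not tested.

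Control transcripts on the arrays also differed between classes. The hybridisation controls, added at fixed amounts after amplification, had log2 means of 10.0 ± 0.08 for 2C, 10.4 ± 0.15 for 4C, 9.93 ± 0.09 for 8C and 10.2 ± 0.08 for 16C (± SD of 3 arrays), and so were highest in the class by which the members were chosen. The poly-A controls averaged 10.9 ± 0.52, 10.5 ± 0.58, 9.0 ± 1.08 and 8.94 ± 0.40 in the same order of classes. The 3' minus 5' difference of actin, which widens with shortened RNA, was 4.55 ± 0.16, 3.90 ± 0.11, 3.42 ± 0.12 and 3.80 ± 0.17. That of GAPDH was 4.85 ± 0.38, 5.20 ± 0.32, 5.05 ± 0.17 and 5.58 ± 0.09. The part of these measures in the members' differences was not tested.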

How the data were processed

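Nuclear RNA of 4 DNA content classes, 3 arrays each, went through 2 rounds of amplification before hybridisation, per the labels' protocols. The deposited log2 probe set signals were made by the authors with RMA, per the submitters' processing notes; neither its version nor its settings are stated there (not given in the sources used here). RMA makes the arrays' distributions alike, so a change of total RNA per nucleus cannot be seen. The table held 0 columns of other samples. With 3 arrays a class, precision is limited by their number.

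From these signals, class means and SDs were computed over 3 arrays and the selection rule was applied. The 64 control probe sets were left out. A linear model without a block was fitted to all 12 arrays and 22746 probe sets in R 4.3.3 by the lmFit, contrasts.fit and eBayes functions of limma 3.58.1, with Benjamini-Hochberg adjustment over all probe sets and a threshold of 0.05; errors of differences are limma's standard errors. The spread is shared by all classes although 2C and 4C were more variable, so p-values of contrasts with them can be too low. A test on simulated data for 8C minus 2C, over 22746 probe sets, recovered 67 of 100 changes of 1 log2 unit. It recovered 92 of 100 of 2 units, with 13 false calls. The simulation gave all classes the same spread, so it does not cover the unequal spread. Its changed probe sets were drawn from the whole array, where the median SE for 8C minus 2C was 0.16, against 0.30 for the members. The recovery therefore does not apply to the members.

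Names come from the platform's annotation, updated to TAIR10.1 (13436 of 13513 single-gene probe sets matched; 503 probe sets name several genes and 8730 none). A listed gene was represented by its probe set with the highest mean. The text names the 24 widest margins, members on a list or with a symbol, up to 6 called members of each contrast by p, the 3 nearest probe sets on each side of the margin, and for other listed genes up to 4 called on 4C minus 8C or the smallest p; AT4G33420, AT3G62040, AT1G43020 between 16C and 8C, AT5G19110, AT5G57670, neighbouring genes, and members named for a margin below 0 or a further probe set were chosen after their values were seen. The members and the lists were chosen with earlier results of these data known. Promoter and protein sequences were not used here. Alternatives were the margin, cyclic loess, left-out dim or shared probe sets, a replicate block, an intensity trend, array weights, a 2-fold minimum, a fit of 6 arrays and leaving out each array; averaging 16C replicates 1 and 2, and a block in the fit of 6 arrays, were added after seeing the data. Replicate numbers paired 4C with 16C arrays (correlations of deviations from class means 0.16, 0.43 and 0.49), whereas the other class pairs did not all exceed 0.1, so the model without a block was kept.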

Additional observations from a re-analysis of the deposited data

How the results depend on the processing

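The members numbered 115, and 94 to 150 with 1 array left out, 63 with a margin of 0.6. The margin of EXLA3, 0.53 in all, lay between -0.97 (without 2C replicate 1) and 1.33 with 1 array left out. Members called 8C minus 2C numbered 31, with 14 to 34 when 1 array was left out and 13 in a fit of the 6 arrays compared. Members called 16C minus 2C numbered 10, with 5 to 14 when 1 array was left out, 4 in a fit of the 6 arrays and 6 with 16C replicates 1 and 2 averaged. Members called 16C minus 8C numbered 0 whichever array was left out, 6 with array weights and 4 in a fit of the 6 arrays. Listed genes outside the members called 4C minus 8C numbered 7, with 1 to 15 when 1 array was left out, 4 with a 2-fold minimum, 15 with array weights and 4 in a fit of the 6 arrays. For 4C minus 2C they numbered 1, and 0 in a fit of the 6 arrays. With 1 array left out they numbered 0 to 2, and the 1 called without 4C replicate 3 was higher in 4C. For 4C minus 16C they numbered 0, with 0 to 9 when 1 array was left out, 14 with array weights, 2 in a fit of the 6 arrays, and 1 each without the dimmest 40%, with cyclic loess and with a random replicate block. A fit of fewer arrays has fewer degrees of freedom. For the other settings the cause was not tested. Shares of all probe sets called are given for the main fit. Beyond it they are given only for 4C minus 16C with a replicate block in the fit of 6 arrays.

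Of 18 same-numbered pairs of arrays, 9 had a correlation of deviations over 0.1, against 12 of 36 pairs of different number. For 4C with 2C the 3 correlations ran from 0.10 to 0.43, the lowest just under 0.1 before rounding, against -0.39 to -0.004 for different numbers. For 2C with 16C they ran from -0.06 to 0.33. For 8C with 2C, 4C and 16C they ran from -0.43 to -0.16, from -0.35 to 0.12 and from -0.49 to 0.14. With the replicate number as a fixed block the counts were 29 for 8C minus 2C, 10 for 16C minus 2C, 0 for 16C minus 8C, and 8, 1 and 0 for the listed genes in 4C minus 8C, 4C minus 2C and 4C minus 16C. A random replicate block gave 32, 10, 0, 7, 1 and 1. A fixed replicate block in a fit of only the 6 arrays compared gave 0, 4, 0, 0, 0 and 4. The 3 arrays of a class limit what can be called, and signal over background cannot be judged without detection calls. Sequence features of promoters and proteins were planned and not run, because no sequences were used here.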

Other observations

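The selection rule was also met by 113 of the 8730 probe sets that the annotation used here does not name, or 1.29%, with a median margin of 0.68 and a highest of 1.87. Among the single-gene probe sets the share was 0.851%, with a median margin of 0.64. No probe set naming several genes met the rule.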
